A study of Mus musculus with 4 samples.

Results

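The small leucine-rich proteoglycans examined here comprised 9 genes, namely Dcn (decorin), Bgn (biglycan), Aspn (asporin), Lum (lumican), Fmod (fibromodulin), Prelp, Omd (osteomodulin), Ogn (osteoglycin or mimecan) and Podn (podocan). They were chosen by symbol out of 28692 gene rows in each library, and all 9 had a row. Unique molecular identifiers (UMIs, each standing for 1 captured transcript molecule) of these genes were summed per library in 5 marker-gated classes of stromal cells that held 29384 cells.

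The cells were mesenchymal stromal cells (MSC) of the lamina propria, a layer of connective tissue under the epithelium, from small intestine and colon of untreated female C57BL6/Nrj mice aged 8 to 10 weeks. No genetic change or treatment separated the groups. By the study's methods, colonic tissue alone received dithiothreitol before digestion and was stirred rather than shaken during it, so that intestinal segment and tissue handling cannot be told apart. Each intestine gave 2 droplet libraries (replicates 1 and 2) from 2 independent experiments, each with 3 pooled mice, and individual mice cannot be told apart. Muscularis externa, Peyer's patches and epithelium had been removed, and the sort kept live cells that carried integrin β1 and lacked CD45, Ter119, CD31, BP3, EpCAM and L1CAM.

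Small leucine-rich proteoglycans are secreted matrix proteins with a curved core of leucine-rich repeats, most of which carry chondroitin, dermatan or keratan sulfate chains. Many bind fibrillar collagen and limit the width and spacing of its fibrils, and several also bind TGF-β family ligands, receptor tyrosine kinases or Toll-like receptors. In connective tissue they are mainly made by fibroblasts (FB). The family is divided into classes, with Dcn, Bgn and Aspn in class I, Lum, Fmod, Prelp and Omd in class II, Ogn in class III and Podn in class V.

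Several members lie beside each other in the genome (GRCm38, GENCODE vM21, all protein coding). Dcn (ENSMUSG00000019929, chr10:97479609-97518143, plus strand) and Lum (ENSMUSG00000036446, chr10:97565128-97572703, plus strand) were 46.984 kb apart. Aspn (ENSMUSG00000021388, chr13:49544443-49567565), Omd (ENSMUSG00000048368, chr13:49582462-49592822) and Ogn (ENSMUSG00000021390, chr13:49608046-49624501) followed each other on the plus strand, with gaps of 14.896 kb and 15.223 kb. All 3 lie within the span of Cenpp, a kinetochore gene on the opposite strand (chr13:49464023-49652785), and whether the counting used strand is not given in the sources used here. Prelp (ENSMUSG00000041577, chr1:133910304-133921414, minus strand) and Fmod (ENSMUSG00000041559, chr1:134037254-134048277, plus strand) were 115.839 kb apart. Podn (ENSMUSG00000028600, chr4:108014791-108096445, minus strand) and Bgn (ENSMUSG00000031375, chrX:73483602-73495933, plus strand) had no other member near them.

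Ogn and Aspn are shown with their upstream sequence, since they lie 40.48 kb apart on chromosome 13, with Omd between them, and their differences between the intestines themselves differed between cell classes, as described below. RefSeq (GRCm38.p6) gave upstream sequences for 7 of the 9 members. The lines below are the 250 bases before the RefSeq start of Ogn (chr13:49607765-49608014, GC content 42.0%) and of Aspn (chr13:49544193-49544442, GC content 30.0%), 5′ to 3′ on the plus strand. Capitals mark matches to TATAAA on either strand, 2 of which overlap in Ogn, and to CANNTG, the E-box motif, which reads alike on both strands.
Ogn: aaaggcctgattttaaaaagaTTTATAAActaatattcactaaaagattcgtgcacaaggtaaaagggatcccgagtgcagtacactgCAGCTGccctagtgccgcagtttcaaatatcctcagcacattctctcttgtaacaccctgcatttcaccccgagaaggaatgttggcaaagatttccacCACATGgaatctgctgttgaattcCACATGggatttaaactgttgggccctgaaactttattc
Aspn: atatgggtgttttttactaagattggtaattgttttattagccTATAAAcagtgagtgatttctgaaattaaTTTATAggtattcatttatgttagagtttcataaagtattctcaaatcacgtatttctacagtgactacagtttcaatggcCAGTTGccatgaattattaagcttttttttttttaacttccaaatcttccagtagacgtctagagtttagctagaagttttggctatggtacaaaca
CANNTG was found 162, 63 and 39 bases before the start of Ogn and 97 bases before that of Aspn, and TATAAA began 229 and 227 bases before the start of Ogn and 207 and 178 bases before that of Aspn. Of 32851 upstream regions of this length, 66.2% held CANNTG and 12.4% held TATAAA on either strand. The letters TGANTCA, an AP-1 motif on both strands, were in neither window and in 6.75% of all regions. These matches are descriptions of sequence and not binding sites.

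Depth differed by replicate number. Libraries held 2061 to 16795 barcodes and 14341443 to 52269372 UMIs, and the 1742 and 2309 cells kept in the replicate 1 libraries of small intestine and colon had higher median depths (6764 and 8707 UMIs) than the 14500 and 12054 cells of the replicate 2 libraries (2741 and 3875.5 UMIs). Pairs of libraries shared 0 to 69 barcodes, at most 0.51% of the smaller library. Classes were gated per cell on marker genes that were not members. PDGFRαhi FB (subepithelial FB, 157 to 2765 cells per library) were gated on genes such as Bmp7 and Wnt5a, CD81+ FB (250 to 2725 cells) on genes such as Cd81, Grem1 and Pi16, smooth muscle cells (SMC, 56 to 779 cells) on genes such as Myh11, and pericytes (16 to 49 cells) on genes such as Rgs5. The remaining cells with fibrillar collagen genes, 735 to 10073 per library, are called Other FB. Among genes not used in the gates, Sox6 was at 126 to 592 CPM (UMIs per 1000000 UMIs of the class) in PDGFRαhi FB and at most 20.8 CPM in Other FB. Wnt4, another check gene of PDGFRαhi FB, did not mark them in colon, and its values are given below with Nrg1 and Edn3 in Other FB. Tagln was at 8815 to 15194 CPM in SMC and at most 227 CPM in Other FB. Of the 4 check genes of CD81+ FB, Rspo2, Rspo3 and C3 were above Other FB in each library, with C3 at 863 to 3908 CPM against 174 to 1755 CPM. The fourth, Cd55, was above Other FB in colon (511 and 866 CPM against 248 and 459 CPM) but below them in small intestine (234 and 327 CPM against 288 and 399 CPM), so that these 2 classes were less sharply separated. Of CD81+ FB, 11.8% to 15.2% lay within 20% above the cut, against 2.55% to 12.8% of PDGFRαhi FB.

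Members together took a large share of the transcripts of CD81+ FB, at 3.15% and 3.13% of UMIs in small intestine replicates 1 and 2 and 2.33% and 2.17% in colon replicates 1 and 2. The share in Other FB was 2.12% and 2.02% in the small intestine and 1.67% and 1.46% in the colon. In PDGFRαhi FB it was 1.20% and 0.958% in the small intestine and 0.886% and 0.629% in the colon. Dcn made up the largest part of these UMIs in CD81+ FB and Other FB, where it ranked 1st and 3rd of all genes by mean CPM over the 4 libraries. SMC lay between 0.553% and 0.989%, and pericytes between 0.137% and 0.504%.

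**Figure D1:**
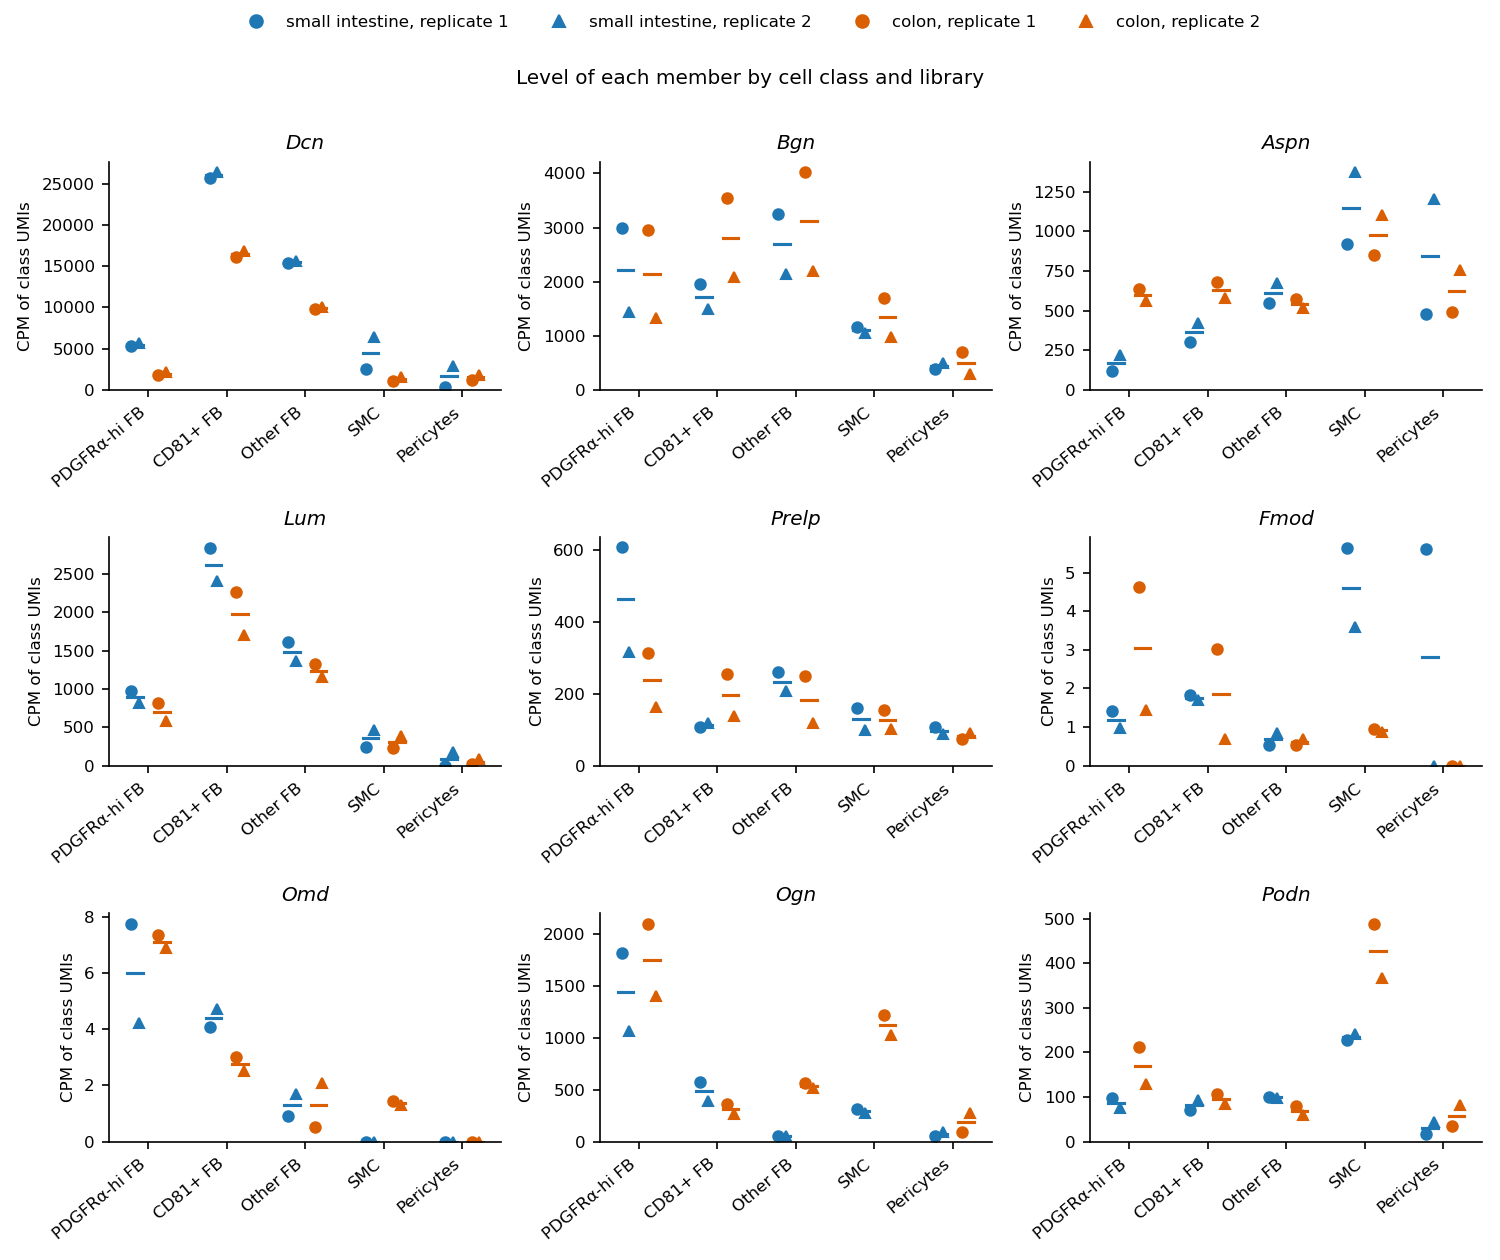
Each panel plots the CPM of 1 member (vertical axis, UMIs per 1000000 UMIs of the class) by cell class (horizontal axis), with 1 point per library and lines at the mean of the 2 libraries of each intestine. Dcn and Lum were highest in CD81+ FB in all 4 libraries, Ogn was highest in PDGFRαhi FB, and Aspn and Podn had their highest means in SMC.

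Dcn, which binds collagen fibrils and TGF-β and is the best studied member, was the most abundant of them in CD81+ FB and Other FB of every library, whereas in PDGFRαhi FB of colon replicate 1 both Bgn and Ogn were above it. In CD81+ FB Dcn stood at 25639 and 26367 CPM in small intestine and 16089 and 16874 CPM in colon (replicates 1 and 2). In Other FB it stood at 15367 and 15622 CPM in small intestine and 9861 and 10081 CPM in colon. PDGFRαhi FB carried 5357 and 5655 CPM in small intestine and 1809 and 2117 CPM in colon. The small intestine was thus above the colon in all 3 FB classes, without overlap, and the classes kept the order CD81+ FB, Other FB, PDGFRαhi FB in each of the 4 libraries. SMC held 2483 and 6368 CPM in small intestine and 1103 and 1588 CPM in colon, with a wide gap between the small intestinal libraries. The summed level of 3 fibrillar collagen genes in SMC had a like gap between the small intestinal libraries (2460 and 6710 CPM) and no deficit in colon (4083 and 5215 CPM), and its part in the Dcn values of SMC was not tested.

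Bgn, the closest relative of Dcn and also a ligand of Toll-like receptors, was higher in replicate 1 than in replicate 2 in each FB class and intestine. In Other FB it stood at 3251 and 2142 CPM in small intestine and 4032 and 2202 CPM in colon. CD81+ FB held 1963 and 1487 CPM in small intestine and 3540 and 2086 CPM in colon. PDGFRαhi FB held 2998 and 1433 CPM in small intestine and 2961 and 1334 CPM in colon. The colon was thus above the small intestine in CD81+ FB without overlap, a difference that was not called (log2 fold change 0.50, SE 0.39, adjusted p = 0.892, edgeR), and the intestines overlapped in Other FB and PDGFRαhi FB. In SMC Bgn was lower, at 980 to 1700 CPM.

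Aspn, a class I member whose core protein lacks the usual glycosaminoglycan attachment site, had its highest mean in SMC, at 923 and 1378 CPM in small intestine and 854 and 1101 CPM in colon. Other FB held 546 and 673 CPM in small intestine and 572 and 515 CPM in colon, with overlap. In PDGFRαhi FB the intestines stood apart, at 121 and 221 CPM in small intestine and 639 and 561 CPM in colon. CD81+ FB lay in the same direction, at 305 and 425 CPM in small intestine and 681 and 583 CPM in colon. Pericytes held 482 and 1204 CPM in small intestine and 490 and 754 CPM in colon, with only 16 cells in small intestine replicate 2. Their mean over the libraries was 733 CPM, against 1064 CPM in SMC. With at least 1000 genes per cell the pericyte mean was 1175 CPM, so the order of SMC and pericytes was not firm.

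Lum, a keratan sulfate proteoglycan that regulates collagen fibrils, followed the class order of Dcn at a lower level (in CD81+ FB a mean of 2303 CPM over the 4 libraries, SD 467, against 21242 CPM, SD 5515, for Dcn). CD81+ FB held 2835 and 2411 CPM in small intestine and 2260 and 1704 CPM in colon. Other FB held 1609 and 1368 CPM in small intestine and 1323 and 1157 CPM in colon, and PDGFRαhi FB held 976 and 814 CPM in small intestine and 816 and 581 CPM in colon. In PDGFRαhi FB the intestines overlapped narrowly, and in the other 2 FB classes the small intestine was above the colon. SMC lay between 238 and 471 CPM, and pericytes at or under 178 CPM.

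Prelp, which links collagen to heparan sulfate of basement membranes, was highest in PDGFRαhi FB in each library, at 608 and 317 CPM in small intestine and 315 and 162 CPM in colon. Other FB held 260 and 208 CPM in small intestine and 249 and 118 CPM in colon. CD81+ FB held 108 and 120 CPM in small intestine and 254 and 138 CPM in colon, so that the colon was the higher in that class and the lower in PDGFRαhi FB, and the intestines overlapped in Other FB. Endothelial cells left in the sort of the replicate 1 libraries (358 in small intestine and 233 in colon) held 238 CPM in small intestine and 281 CPM in colon, at the level of the FB. By contrast those endothelial cells held 221 and 14.3 CPM of Dcn.

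Podn, a collagen-binding member of class V, was highest in SMC, at 228 and 241 CPM in small intestine and 489 and 367 CPM in colon. In PDGFRαhi FB it stood at 98.0 and 75.7 CPM in small intestine and 212 and 128 CPM in colon. Both classes had the colon above the small intestine without overlap. Other FB had the opposite order, at 99.8 and 98.6 CPM in small intestine and 80.1 and 58.8 CPM in colon, and CD81+ FB overlapped at 70.1 to 108 CPM.

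Omd and Fmod, both class II members known mainly from bone and tendon, were close to the limit of detection. Omd had 11 and 13 UMIs in small intestinal and 46 and 77 UMIs in colonic PDGFRαhi FB, which made 4.24 to 7.76 CPM. In CD81+ FB it was at 2.51 to 4.71 CPM, in Other FB at 0.529 to 2.08 CPM, and pericytes had 0 UMIs. Fmod had at most 29 UMIs in any library and FB class, and no level of it exceeded 5.63 CPM. No difference in Fmod was called in any comparison, and at this depth a small one was not detectable.

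Ogn, a class III member that regulates collagen fibril assembly, had a pattern unlike that of Dcn and Lum. In PDGFRαhi FB it stood at 1809 and 1059 CPM in small intestine and 2093 and 1396 CPM in colon, with overlap between the intestines. CD81+ FB held 577 and 392 CPM in small intestine and 359 and 265 CPM in colon. Other FB held 52.0 and 55.7 CPM in small intestine but 564 and 511 CPM in colon. The colon was thus 10.9-fold as high as the small intestine in Other FB of replicate 1 and 9.17-fold in replicate 2. In CD81+ FB as a whole the small intestine was the higher, whereas the intestines overlapped within the groups of CD81+ FB described below. SMC likewise held more in colon, at 310 and 273 CPM in small intestine and 1219 and 1020 CPM in colon. In colon, Other FB and SMC were therefore above CD81+ FB, whereas in small intestine Other FB were the lowest of the 3 FB classes and SMC.

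The difference in Other FB was also present in 2 groups of Other FB gated on further genes. The first was gated on the summed UMIs of Igfbp5, Thy1, Pparg and Cd34, so that a cell could pass on any of them. It held 24.4 and 35.8 CPM of Ogn in small intestine and 484 and 354 CPM in colon. The second was gated in the same way on Fgfr2, Cxcl14 and Fgf10, and cells that passed both gates were left out. It held 5.92 and 25.0 CPM in small intestine and 689 and 754 CPM in colon. Dcn in the same 2 groups was at 16768 and 17129 CPM against 11646 and 11792 CPM, and at 7563 and 8095 CPM against 7092 and 6635 CPM. The gap between the intestines in Ogn thus ran through both groups, with Dcn lower in colon in both. The study names an Igfbp5+ subset in small intestine and a CD90+ (Thy1+) subset in colon. It relates colonic Fgfr2+ FB to the Igfbp5+ as well as the Fgfr2+ subset of small intestine. Other FB and these groups may therefore hold unlike subsets in each intestine, and the part of this in the Ogn difference was not tested.

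**Figure D2:**
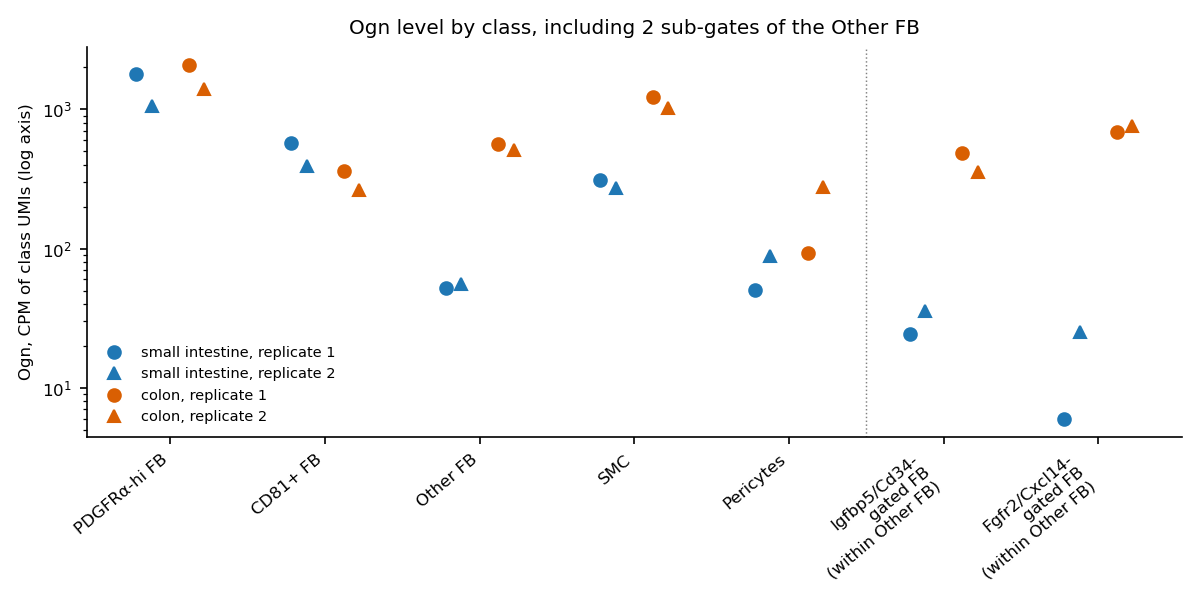
Ogn is plotted in CPM on a log axis by class, with the 2 gated groups of Other FB on the right, and 1 point per library. Colonic and small intestinal points overlap in PDGFRαhi FB, and in Other FB the colon (564 and 511 CPM) lies far above the small intestine (52.0 and 55.7 CPM).

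Shares of cells with an Ogn UMI gave the same order. After each cell had been thinned to 1000 UMIs, which left out 0 cells, 4.76% and 4.85% of small intestinal and 29.6% and 29.6% of colonic Other FB had an Ogn UMI. Without thinning the shares were 16.9% and 9.77% in the small intestine and 69.1% and 58.2% in the colon, at median depths of 7868, 2781, 9042.5 and 4028 UMIs. In PDGFRαhi FB the thinned shares were 72.6% and 59.2% in the small intestine and 71.4% and 61.1% in the colon, and the unthinned shares 98.1%, 77.4%, 89.0% and 79.2%. Endothelial cells of the replicate 1 libraries served as a background, with 0 of 358 and 0 of 233 cells after thinning, which allows shares of up to 0.838% and 1.29%. Unthinned, 0.559% and 1.29% of them had an Ogn UMI, at median depths of 4408 and 5044 UMIs. These limits cover counting error only. The thinned share in small intestinal Other FB of replicate 1 was low but above this limit. The replicate 2 libraries had only 13 and 26 endothelial cells, which held FB transcripts (7757 and 774 CPM of Dcn), with 110.8 CPM of Ogn from 3 UMIs in small intestine and 70.96 CPM from 11 UMIs in colon, and so gave no background for the low Ogn of small intestinal Other FB in replicate 2.

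PDGFRαhi FB, 9.01% and 9.38% of the cells in small intestine and 25.1% and 22.9% in colon, held 60.5% and 39.8% of all Ogn UMIs of the 5 classes in small intestine and 63.1% and 48.1% in colon. CD81+ FB held 29.9% and 39.7% in small intestine, in replicate 2 about as much as PDGFRαhi FB, but 4.01% and 8.17% in colon. Other FB held 6.77% and 19.6% in the small intestine and 20.5% and 36.3% in the colon. For Dcn, PDGFRαhi FB held 2.53% to 8.99% of the UMIs in any library.

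To compare the intestines, edgeR's quasi-likelihood test with Benjamini-Hochberg adjustment over all genes was run on the summed UMIs of each class, with the 2 libraries of an intestine as replicates. The p-values measure the spread between libraries of pooled mice, and a call is an adjusted p under 0.05. Log2 fold changes are for colon over small intestine and use TMM scaling, so they can differ from ratios of CPM. Ogn in Other FB was the 1 member called, and it rose in colon. Each comparison had 2 libraries against 2.

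In Other FB, 1 of 9 members was called, where 0.33% of 13042 genes were called in either direction. Ogn was higher in colon by 3.28 on the log2 scale (SE 0.23, adjusted p = 0.0362, edgeR), and by 3.42 and 3.17 within replicates 1 and 2 (log2 ratio of CPM with 1 CPM added). DESeq2 also called Ogn alone of the members, and 522 genes in all. The edgeR call of Ogn was lost without small intestine replicate 1 or 2, at a similar log2 fold change of 3.22 or 3.31. Each of these fits left 1 small intestinal library, so that the spread came from the colonic libraries alone. Markers of PDGFRαhi FB moved with it in part. Their 7 gate genes summed to 323 and 301 CPM in small intestinal and 530 and 433 CPM in colonic Other FB with none at 0. Of their 4 check genes, Wnt4 was at 21.2 and 82.0 CPM in small intestinal and 201 and 351 CPM in colonic Other FB, and Nrg1 at 6.52 and 10.2 CPM and at 34.3 and 69.3 CPM. Sox6 (0.544 and 5.89 CPM against 3.44 and 20.8 CPM) and Edn3 (6.34 and 5.40 CPM against 3.97 and 7.03 CPM) overlapped between the intestines. Wnt4 did not mark PDGFRαhi FB in colon, where they held 159 and 351 CPM of it. The part of these markers in the Ogn difference was not tested. Other FB with 0 UMIs of those 7 genes were 19.2% and 45.1% of the class in small intestine and 7.43% and 27.1% in colon. These cells held 87.5 and 42.9 CPM of Ogn in small intestine and 309 and 313 CPM in colon. The gap was narrower than over all Other FB (52.0 and 55.7 CPM against 564 and 511 CPM). Such cells were more frequent in the shallower replicate 2 libraries, so that depth enters this selection. Dcn was at -0.68 (SE 0.25, adjusted p = 0.469), lower in colon in both replicates, and was not called. Lum, Aspn, Bgn, Fmod, Prelp, Podn and Omd lay between -0.56 and 0.15 (adjusted p of 0.503 or more).

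In PDGFRαhi FB, 0 of 8 members tested were called by edgeR, where 1.61% of 11525 genes were called. At an unadjusted p under 0.05 were 3 members, and the share of all genes at that cut was not counted. DESeq2 called 2 of these members, Dcn and Aspn, and 602 genes in all. Aspn was at a log2 fold change of 1.94 (SE 0.39, adjusted p = 0.0975), and Dcn at -1.34 (SE 0.31, adjusted p = 0.128). Podn was at 1.10 (SE 0.33, adjusted p = 0.242). Each kept its direction in both replicates. Lum, Ogn, Bgn, Prelp and Omd lay between -0.83 and 0.44 (adjusted p of 0.637 or more, edgeR). For Dcn the share of PDGFRαhi FB with a UMI, thinned to 1000 UMIs, was 93.0% and 94.4% in the small intestine and 57.4% and 59.3% in the colon (unthinned 98.7%, 98.2%, 81.6% and 75.7%), against 3.91% and 1.29% of thinned and 9.78% and 3.43% of unthinned endothelial cells in the replicate 1 libraries of small intestine and colon.

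In CD81+ FB, 0 of 8 members tested were called by edgeR, where 0.27% of 11472 genes were called. DESeq2 called 0 members and 272 genes in all. Dcn, the 1 member at an unadjusted p under 0.05, was at -0.84 (SE 0.31, adjusted p = 0.545). Lum, Ogn, Aspn, Bgn, Prelp, Podn and Omd lay between -0.87 and 0.62 (adjusted p of 0.640 or more, edgeR). In SMC, 0 of 7 members tested were called by edgeR, where 0.0962% of 9351 genes were called. At an unadjusted p under 0.05 were 3 members, again without a count over all genes. DESeq2 called Ogn alone of the members, and 100 genes in all. Ogn was at 1.98 (SE 0.31, adjusted p = 0.126), with 1.97 and 1.90 within replicates 1 and 2, Podn at 0.91 (SE 0.32, adjusted p = 0.569) and Dcn at -1.66 (SE 0.51, adjusted p = 0.477). Lum, Aspn, Bgn and Prelp lay between -0.19 and 0.31 (adjusted p of 0.934 or more, edgeR). Pericytes were not tested, since small intestine replicate 2 had 16 of them.

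**Figure D3:**
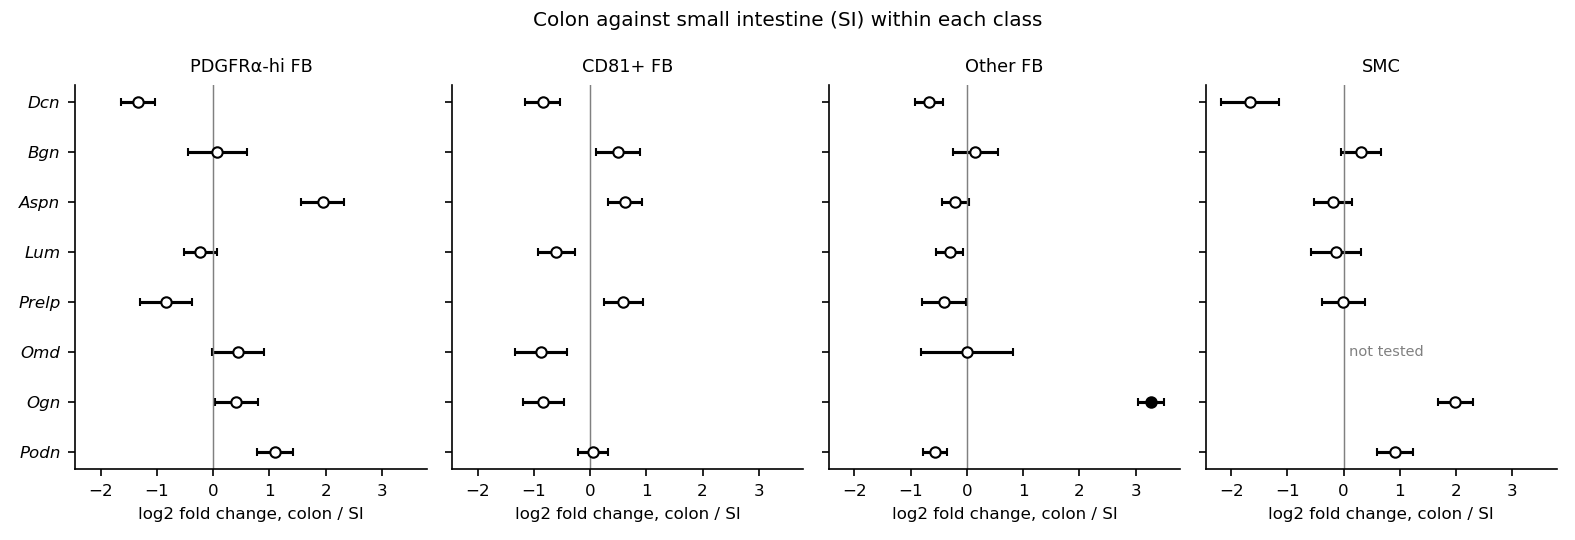
Log2 fold changes of colon over small intestine with their SE are plotted for the members tested in each of 4 classes, and filled points have an edgeR adjusted p under 0.05. Only Ogn in Other FB is filled, at 3.28, and Dcn lies below 0 in every class.

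Whether a difference between the intestines itself differed between classes was tested as a class by intestine term with library as a block. Ogn, Aspn and Podn differed from their values in Other FB in both other FB classes, Ogn downward and Aspn and Podn upward. Each value below is the colon effect in the named class minus that in Other FB. These 2 comparisons share the Other FB sums and are given side by side.

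Between PDGFRαhi FB and Other FB, 4 of 8 members differed, where 8.38% of 12636 genes did. Ogn was at -2.82 (SE 0.34, adjusted p = 0.0133, edgeR). Its levels overlapped between the intestines in PDGFRαhi FB and not in Other FB. Aspn was at 2.18 (SE 0.18, adjusted p = 6.37e-06) and Podn at 1.66 (SE 0.16, adjusted p = 1.33e-05). Dcn was at -0.68 (SE 0.11, adjusted p = 0.00124, edgeR), so that its colonic deficit was deeper in PDGFRαhi FB. This call was lost without small intestine replicate 2, at -0.64, a fit that left 1 small intestinal library. Lum, Bgn, Prelp and Omd lay between -0.34 and 0.54 (adjusted p of 0.352 or more).

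Between CD81+ FB and Other FB, 4 of 9 members differed, where 3.37% of 12598 genes did. Ogn was at -4.04 (SE 0.29, adjusted p = 0.00353, edgeR), the largest of the members' terms in size. Prelp was at 1.00 (SE 0.14, adjusted p = 0.000385) and Aspn at 0.83 (SE 0.12, adjusted p = 0.000672). Podn was at 0.60 (SE 0.13, adjusted p = 0.0157, edgeR), and this call was lost with DESeq2 (adjusted p = 0.285). It was also lost without colon replicate 1, at 0.63, and without colon replicate 2, at 0.58, fits that left 1 colonic library. Ogn, Prelp and Aspn were also called by DESeq2. Bgn at 0.36 (adjusted p = 0.158, edgeR) and Lum at -0.29 (adjusted p = 0.322, edgeR) were not called, and Dcn, Fmod and Omd lay between -1.03 and -0.16 (adjusted p of 0.508 or more).

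Classes were compared within libraries by edgeR with library as a block, leaving the gate genes out of the tests. Against Other FB, CD81+ FB were higher in Dcn and Lum, PDGFRαhi FB were lower in both, and SMC were lower in both and higher in Ogn, Aspn and Podn. Log2 fold changes are for the class named first.

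Between PDGFRαhi FB and Other FB, 5 of 8 members tested were called, where 26.9% of 12636 genes were. Dcn was lower at -2.12 (SE 0.18, adjusted p = 0.000478, edgeR), Lum at -0.98 (SE 0.10, adjusted p = 0.000958) and Bgn at -0.66 (SE 0.12, adjusted p = 0.00884). Omd was higher by 1.99 (SE 0.41, adjusted p = 0.0133), from few UMIs. Prelp was higher by 0.46 (SE 0.13, adjusted p = 0.0374), and this call was lost without any 1 of the 4 libraries (adjusted p = 0.0633 to 0.0838). Ogn, at 2.96 (SE 0.81, adjusted p = 0.0672), was not called by edgeR but was by DESeq2, and Podn and Aspn lay between -1.04 and 0.36 (adjusted p of 0.270 or more, edgeR). The Ogn value pools gaps of unlike size. In small intestine the CPM were 1809 and 1059 against 52.0 and 55.7, and in colon 2093 and 1396 against 564 and 511. Without the library block, Bgn and Prelp were not called.

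Between CD81+ FB and Other FB, 3 of 9 members were called, where 13.8% of 12598 genes were. Lum rose by 0.87 (SE 0.10, adjusted p = 0.000352, edgeR) and Dcn by 0.86 (SE 0.10, adjusted p = 0.000372). Omd rose by 1.33 (SE 0.37, adjusted p = 0.0412), and this call was lost without small intestine replicate 1 (adjusted p = 0.0966), without small intestine replicate 2 (adjusted p = 0.234) and without colon replicate 1 (adjusted p = 0.123). Without the library block none of the 3 was called, and none had a log2 fold change beyond 1.5. Fmod at 1.17 (adjusted p = 0.138, edgeR) and Bgn at -0.25 (adjusted p = 0.142, edgeR) were not called, and Ogn, Aspn, Prelp and Podn lay between -0.30 and 1.24 (adjusted p of 0.366 or more). The Ogn value pools opposite differences. CD81+ FB were above Other FB in small intestine (577 and 392 against 52.0 and 55.7 CPM). In colon CD81+ FB were below them (359 and 265 against 564 and 511 CPM).

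Between PDGFRαhi FB and CD81+ FB, 3 of 9 members were called, where 28.3% of 12162 genes were. Dcn was at -2.97 (SE 0.24, adjusted p = 0.000338, edgeR) and Lum at -1.84 (SE 0.17, adjusted p = 0.000484), while Ogn was at 1.69 (SE 0.28, adjusted p = 0.00602). Both classes thus differed in opposite directions for Ogn and for the pair of Dcn and Lum. All 3 calls held without any 1 library and without the block. Aspn, at -0.90 (adjusted p = 0.0802, edgeR), was called by DESeq2 only, and Bgn, Fmod, Prelp, Podn and Omd lay between -0.40 and 0.78 (adjusted p of 0.152 or more).

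Between SMC and Other FB, 7 of 8 members tested were called, where 27.4% of 12123 genes were. Higher in SMC were Podn by 1.80 (SE 0.36, adjusted p = 0.0167, edgeR), Ogn by 1.52 (SE 0.27, adjusted p = 0.00463) and Aspn by 0.68 (SE 0.14, adjusted p = 0.00279). Lower were Dcn at -2.63 (SE 0.30, adjusted p = 0.00192), Lum at -2.25 (SE 0.21, adjusted p = 4.27e-05), Bgn at -1.41 (SE 0.13, adjusted p = 1.00e-05) and Prelp at -0.81 (SE 0.17, adjusted p = 0.00361). Class I therefore split, with Aspn on 1 side and Dcn and Bgn on the other. Fmod, at 1.22 (adjusted p = 0.334, edgeR), was not called. All 7 calls held without any 1 library, and Ogn and Prelp were not called without the library block.

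**Figure D4:**
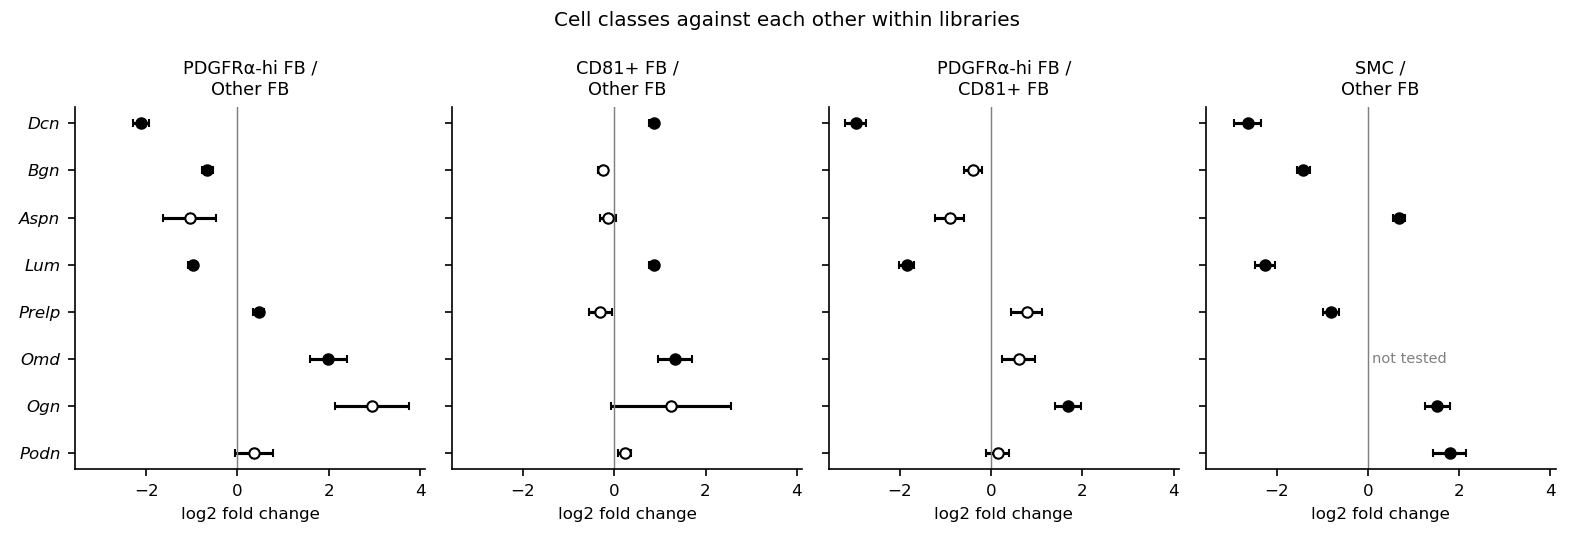
Log2 fold changes with their SE are plotted for the members in the 4 class contrasts, and filled points have an edgeR adjusted p under 0.05. Dcn and Lum lie above 0 for CD81+ FB against Other FB and below 0 in the other 3 contrasts, and Podn, Ogn and Aspn lie above 0 for SMC.

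CD81+ FB were not uniform. Cells with a UMI of Ackr4 and none of Pi16 (46 to 952 per library) held 704 and 495 CPM of Ogn in small intestine and 536 and 382 CPM in colon. Cells with a UMI of Pi16, a marker of adventitial FB, and none of Ackr4 (10 to 703 per library) held 219 and 346 CPM in small intestine and 192 and 220 CPM in colon. Ogn was higher in the Ackr4 group in each of the 4 libraries. Within either group Ogn overlapped between the intestines, though the small intestine was the higher at each replicate number. The mix of these groups differed between the intestines, and its part in the Ogn and Dcn values of CD81+ FB was not tested. Dcn in the Ackr4 group stood at 26646 and 28039 CPM in small intestine and 23977 and 24382 CPM in colon, and in the Pi16 group at 22195 and 26718 CPM and at 15756 and 16055 CPM. Lum was at 3195, 2587, 3200 and 2152 CPM in the Ackr4 group and at 2054, 2207, 2341 and 1614 CPM in the Pi16 group, in the same order of libraries. These are descriptions, and a UMI of either gene depends on depth.

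Across the 19 library and class sums with at least 20 cells, log2(CPM + 10) of Dcn and Lum correlated at a Pearson r of 0.88, and of Dcn and Ogn at -0.06. Aspn and Ogn were at -0.22. Sums of 1 library share their depth, and classes recur in all libraries, so these values are descriptions. Of 5964 genes that reached 50 CPM in a sum, those most like Dcn were Cd34 (0.961), Nfib (0.939) and Mgp (0.935), and those most like Lum were Dpt (0.977), Tmed3 (0.970) and Rcn3 (0.968). Ogn had no match as close, with Prickle1 (0.859), Rbp4 (0.859) and Pdcd6 (0.828). Aspn was nearest to Tmem47 (0.852), Bgn to Ap3s1 (0.948), Prelp to Tmem9 (0.890) and Podn to Smpd2 (0.935), and Omd and Fmod did not reach 50 CPM.

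Of 9 further small leucine-rich proteoglycans, Ecm2, Epyc and Optc reached 20 CPM in some FB or SMC sum. Ecm2, which lies upstream of Aspn on chromosome 13, was at 122 and 120 CPM in small intestinal and 104 and 96.4 CPM in colonic CD81+ FB, above Other FB by 1.06 on the log2 scale (SE 0.07, adjusted p = 1.70e-05, edgeR). Epyc, which lies downstream of Dcn and Lum on chromosome 10, was at 26.9 and 13.3 CPM in small intestinal and 0.431 and 1.40 CPM in colonic CD81+ FB, and above Other FB by 3.16 (SE 0.36, adjusted p = 0.000514). Neither Ecm2 nor Epyc was called without the library block (adjusted p = 0.0966 and 0.515, edgeR). Optc, beside Prelp on chromosome 1, was at 25.3 and 25.2 CPM in small intestinal and 84.0 and 65.8 CPM in colonic SMC, above Other FB by 6.36 (SE 0.33, adjusted p = 7.43e-08). Tsku and Chadl were at or under 12.0 CPM in the FB classes and SMC, and Kera, Chad, Nyx and Podnl1 at or under 1.73 CPM.

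Enzymes that assemble the chains of these proteins changed between classes in both directions. For PDGFRαhi FB against Other FB, 4 of 23 were higher and 6 lower by edgeR (median log2 fold change -0.05, against 0.00 over all genes), where 26.9% of genes were called. Chst1 and Chst2, sulfotransferases that act on keratan sulfate-type chains, were higher by 2.69 and 2.22, and Csgalnact1, which starts chondroitin chains, and the chondroitin sulfotransferases Chst7 and Chst12 were at -5.63, -3.91 and -1.95. Chst1, Chst2 and Chst12 were not called without the library block (adjusted p = 0.0682, 0.129 and 0.0652, edgeR). Against CD81+ FB, PDGFRαhi FB were higher in 5 and lower in 6 of 23, where 28.3% of genes were called. In CD81+ FB against Other FB, where 13.8% of genes were called, 3 of 24 were higher, led by Xylt1 at 0.74, and 4 lower, led by Chst1 at -1.33. The Xylt1 call was lost without colon replicate 1 (adjusted p = 0.0562, edgeR) and without colon replicate 2 (adjusted p = 0.0822, edgeR). Neither Xylt1 nor Chst1 was called there without the library block (adjusted p = 0.822 and 0.791, edgeR). In SMC against Other FB, 2 of 23 were higher, with Chst1 at 2.46, and 6 lower, where 27.4% of genes were called. The Chst1 call in SMC was lost without the library block (adjusted p = 0.0577, edgeR).

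Genes for fibril partners of the members were mostly lower in PDGFRαhi FB and SMC than in Other FB. Of 14 partners tested (the genes of collagens 1 and 3 served as gates), PDGFRαhi FB were lower than Other FB in 9 and higher in 2 (median -0.73, against 0.00 over all genes, of which 26.9% were called), with Col14a1 at -4.72, Eln at -4.31 and Tnxb at -2.60, and Col6a1 at 0.73. The Col14a1 call was lost without small intestine replicate 1 (adjusted p = 0.0579, edgeR) and without colon replicate 2 (adjusted p = 0.101, edgeR). It was also lost with no low-count filter (adjusted p = 0.0546, edgeR) and without the library block (adjusted p = 0.0896, edgeR). SMC were lower than Other FB in 13 of 14 (median -1.47, against -0.04 over all genes, of which 27.4% were called). CD81+ FB, where 13.8% of genes were called, were higher in 3, led by Col14a1 at 1.38, and lower in 2. Without the library block the Col14a1 call in CD81+ FB was lost (adjusted p = 0.388, edgeR). Of 8 proteases, 2 (Adamts1 and Bmp1) were lower in PDGFRαhi FB, which is close to the share of 26.9% over all genes, and 5 were lower in SMC, led by Mmp3 at -4.81, where 27.4% of genes were called. Of 14 ligands and receptors, SMC were higher in 2, with Met, a receptor that Dcn binds, at 6.73, and lower in 6, and PDGFRαhi FB were higher in 1 and lower in 6, beside the same shares of 27.4% and 26.9%. Between the intestines, 0 of 57 to 66 genes tested from these 4 lists and the further proteoglycans were called by edgeR in each class. At an unadjusted p under 0.05 were 12 or 13 of them, and the share of all genes at that cut was not counted. DESeq2 called 7 in PDGFRαhi FB, 3 in CD81+ FB, 4 in Other FB and 1 in SMC. Over all genes it called 602, 272, 522 and 100 in these classes.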

How the data were processed

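The authors sorted MSC, made droplet libraries with a 3′ or a 5′ kit (which kit a library had is not given in the sources used here), used Cell Ranger with the mm10 genome to obtain UMI counts, in version 3.0.2 for replicate 1 and 3.1.0 for replicate 2 per the file headers. What they deposited are unnormalized UMI counts for each gene and barcode, and the submitters' processing notes also name Seurat 3. UMIs count molecules at 1 transcript end, so levels were not scaled by gene length. Replicate number, Cell Ranger version and depth cannot be told apart.

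Cells were kept from 500 genes and 1000 UMIs upward if no more than 10% of UMIs were mitochondrial (scanpy 1.11.5, Python 3.11.15). The 5% of cells with the highest scrublet score were removed in each library, since the automatic threshold marked 1 cell (0.00655%) in small intestine replicate 2. A cell was gated by panel UMIs per 10000 UMIs, with cuts of 15 for PDGFRαhi FB, 10 for CD81+ FB, 20 for SMC and 40 for pericytes (of which at least 10 from genes other than Rgs5). Other FB had at least 20 of collagens 1 and 3. Cells that passed cuts for endothelial, immune, plasma, epithelial, glial or mesothelial cells or interstitial cells of Cajal were set aside, as were mixed ones. Cuts were set after the scores had been seen, and the rebuilt classes may differ from those of the study.

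Sums of counts over the cells of a class in a library were tested with edgeR 4.0.16 (filterByExpr, TMM, robust quasi-likelihood, Benjamini-Hochberg over all genes tested, R 4.3.3), with no block between intestines and library as a block between classes. Cells are not replicates. DESeq2 1.42.0 was an alternative. SE is the log2 fold change divided by the root of the F statistic. All 9 members are named in every comparison in which they were tested, with a value where the unadjusted p was under 0.05 and within a range otherwise. Of the related lists, genes among those called with the largest change are named. The steps were tested on simulated counts. Members and lists were chosen with earlier results of these data known. Likeness used genes with at least 50 CPM in 1 sum and a pseudocount of 10 CPM.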

Additional observations from a re-analysis of the deposited data

Results flagged for a closer look

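The difference between colon and small intestine itself differed between classes for 4 members in each of 2 tests (edgeR class by intestine term with library as a block, value in the named class minus value in Other FB). For PDGFRαhi FB these were Ogn at -2.82, Aspn at 2.18, Podn at 1.66 and Dcn at -0.68 on the log2 scale. For CD81+ FB they were Ogn at -4.04, Prelp at 1.00, Aspn at 0.83 and Podn at 0.60. Ogn was the 1 member of the 8 terms whose level overlapped between the intestines in PDGFRαhi FB (1809 and 1059 CPM in small intestine, 2093 and 1396 CPM in colon) and far higher in colon in Other FB (52.0 and 55.7 CPM against 564 and 511 CPM). Groups of 2 libraries were too small for a test of single libraries that stand apart.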

How the results depend on the processing

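The 41 fold changes of members and 18 of genes of the related lists that are given singly kept their direction in the alternatives run, and 22 and 11 of them gained or lost a call in at least 1. Counts of genes called between the intestines changed most. In PDGFRαhi FB 185 genes became 602 with DESeq2 and 734 with no low-count filter, and members called went from 0 to 2 with either and to 1 with a higher gate. In CD81+ FB 31 genes became 272 with DESeq2, 519 with no filter and 67 with a higher gate. In Other FB 43 genes became 522 with DESeq2 and 330 with no filter. In SMC 9 genes became 100 with DESeq2, 164 with no filter, 18 with a higher gate and 0 with at least 1000 genes per cell or with doublets kept, and members called went from 0 to 1 with DESeq2 and with no filter.

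In fits that held replicate number as a replicate block, 2738, 930, 2361 and 642 genes were called in PDGFRαhi FB, CD81+ FB, Other FB and SMC, and 4 members (Dcn, Aspn, Prelp and Podn), 1 (Ogn), 3 (Dcn, Ogn and Podn) and 3 (Dcn, Ogn and Podn). Same-numbered libraries deviated together over genes (correlations 0.72, 0.60, 0.77 and 0.55), but the labels do not say that the numbers pair the libraries, and 2 pairs are too few to tell.

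Requiring a log2 fold change beyond 1.5, genes called between classes went from 3405 to 1072 (PDGFRαhi FB against Other FB), from 1736 to 386 (CD81+ FB against Other FB), from 3438 to 1365 (PDGFRαhi FB against CD81+ FB) and from 3321 to 1322 (SMC against Other FB), and members called to 2 of 5, 0 of 3, 3 of 3 and 4 of 7. Without the library block they were 773, 21, 1365 and 1449 genes, and members called went from 5 to 3, from 3 to 0, from 3 to 3 and from 7 to 5. In the CD81+ FB class by intestine test DESeq2 called 169 genes instead of 425.

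Leaving out 1 library each gave 0 to 440, 1 to 121, 0 to 301 and 6 to 75 genes between the intestines (0 to 1 member in PDGFRαhi FB and in Other FB, and 0 in CD81+ FB and in SMC), and 1967 to 2453, 1092 to 1402, 2132 to 2732 and 1928 to 3330 genes between classes (4, 2 to 3, 3 and 7 members). For the class by intestine tests these were 604 to 1134 and 129 to 626 genes (3 to 4 members each).

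Without mitochondrial and ribosomal protein genes in the total, mean levels were 105 CPM for Podn in CD81+ FB, 1618 CPM for Lum and 683 CPM for Aspn in Other FB. With at least 1000 genes per cell, pericyte means were 1175 CPM for Aspn, 683 CPM for Bgn, 184 CPM for Prelp and 87.3 CPM for Podn. The mean share of cells with an Ogn UMI was 85.5% and 75.9% in small intestinal and colonic PDGFRαhi FB and 7.11% and 44.5% in Other FB when thinned to 2000 UMIs, and 87.7%, 84.1%, 13.3% and 63.6% unthinned. Without a library these shares at 1000 UMIs were 59.2% to 72.6%, 61.1% to 71.4%, 4.76% to 4.85% and 29.60% in either colonic library. Of the 42 member differences given only within ranges, 17 had the other sign in some alternative. The automatic doublet threshold and leaving out libraries for the last 2 kinds of result were chosen after seeing the data. Fmod, Omd and pericytes are limited by depth.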
